A study of Homo sapiens with 8 samples.

Results

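The heat shock chaperones described here were 10 protein-coding genes, taken as the rows of the deposited expression table with the symbols *HSPA1A*, *HSPA1B*, *HSPA8*, *HSPH1*, *HSP90AA1*, *DNAJB1*, *BAG3*, *HSPB1*, *HSPD1* and *HSPE1*. All 10 were present among the 13842 genes of the table, and all 10 passed the filter on low values, with no fewer than 1578 reads for any of them in any library. RNA-seq had been performed on 2 related cell lines, the non-tumorigenic breast epithelial MCF10A and DCIS.COM, a model of ductal carcinoma in situ. Each line was stably transduced with the control vector pLOC-empty or with pLOC-*MALINC1*, which carries the long non-coding RNA (lncRNA) *MALINC1*, and 2 libraries were made for each of the 4 groups. All cells, controls included, had been selected with blasticidin at 10 µg/ml. MCF10A was cultured with epidermal growth factor, hydrocortisone, insulin and cholera toxin beside horse serum, and DCIS.COM with horse serum alone, so that cell line and medium cannot be told apart. The labels do not say that the 2 libraries of a group came from separate transductions or cultures, and p-values therefore measure the spread between these libraries, which may be technical.

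Heat shock proteins are molecular chaperones that hold unfolded proteins, refold them with the energy of ATP or pass them on for degradation. In unstressed cells the transcription factor HSF1 is kept inactive, in part by the chaperones themselves, and when unfolded proteins accumulate it forms trimers that bind heat shock elements, arrays of the unit GAA in alternating orientation, in front of chaperone genes. Epithelial cancer cells often carry high chaperone levels, and several members of the family are also made without stress.

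The promoters are shown first because the 10 genes have the heat shock response in common. The genes were chosen as heat shock chaperones, in front of which such elements are known. The counts below therefore describe the windows and test nothing. In the RefSeq promoter windows (GRCh38.p14, 250 bases before to 50 after each transcription start, 14 windows for the 10 genes), 3 arrangements of the unit were searched on both strands. These were the head to head pair GAANNTTC, the tail to tail pair TTCNNGAA, and the triple, GAANNTTCNNGAA or TTCNNGAANNTTC, which contains one pair of each kind. In the sequences below, printed 5′ to 3′ on the strand of the gene, capitals mark the bases of these matches.
HSPA1A, chr6:31815417-31815464 (+): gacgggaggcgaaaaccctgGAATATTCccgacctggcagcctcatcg
HSPA1B, chr6:31827613-31827660 (+): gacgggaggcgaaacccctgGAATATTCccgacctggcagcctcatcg
HSPA8, chr11:123062159-123062386 (-): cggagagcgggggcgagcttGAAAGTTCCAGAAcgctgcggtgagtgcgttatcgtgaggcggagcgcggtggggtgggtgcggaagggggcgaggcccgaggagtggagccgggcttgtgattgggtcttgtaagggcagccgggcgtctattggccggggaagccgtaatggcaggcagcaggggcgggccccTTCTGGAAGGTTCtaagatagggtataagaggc
HSP90AA1, chr14:102087085-102087152 (-): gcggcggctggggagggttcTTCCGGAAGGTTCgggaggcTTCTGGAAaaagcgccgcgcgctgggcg
DNAJB1, chr19:14518417-14518494 (-): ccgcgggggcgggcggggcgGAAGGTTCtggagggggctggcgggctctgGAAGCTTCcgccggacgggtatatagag
HSPB1, chr7:76302471-76302518 (+): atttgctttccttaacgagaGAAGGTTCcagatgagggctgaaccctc
HSPD1, chr2:197500048-197500090 (-): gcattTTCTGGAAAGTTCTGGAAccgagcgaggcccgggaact

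The head to head pair was found in 8 of the 14 windows, which belong to 7 of the 10 genes, against 6.77% of all 35116 RefSeq promoter windows of the same length. The tail to tail pair was found in 3 of the 14 windows, against 7.74% of all windows. The triple was found in the windows of *HSPA8*, *HSP90AA1* and *HSPD1*, 3 of 14 against 0.490% of all windows. *HSPA8* carried 2 triples, one from -230 to -218 and one from -55 to -43 relative to its start. *HSPD1* carried 2 that overlap each other, from -245 to -233 and from -240 to -228. *HSPA1A* and *HSPA1B* are a tandem gene pair, and their windows were identical at 277 of 299 aligned positions, the matched pair included. Their matches are thus not separate finds. *DNAJB1* had head to head pairs at -77 and -47 in the window shown, and one more at position 1 in another of its windows. *HSPD1* and *HSPE1* lie head to head on chromosome 2, their starts separated by 539 bases in GRCh38.p14. The array printed for *HSPD1* lay between them, 228 bases from the start of *HSPD1* and 294 bases from that of *HSPE1*, outside the window of *HSPE1*. No match was found in the windows of *HSPH1*, *HSPE1* and *BAG3*, which says only that these letters were absent from these windows.

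**Figure D1:**
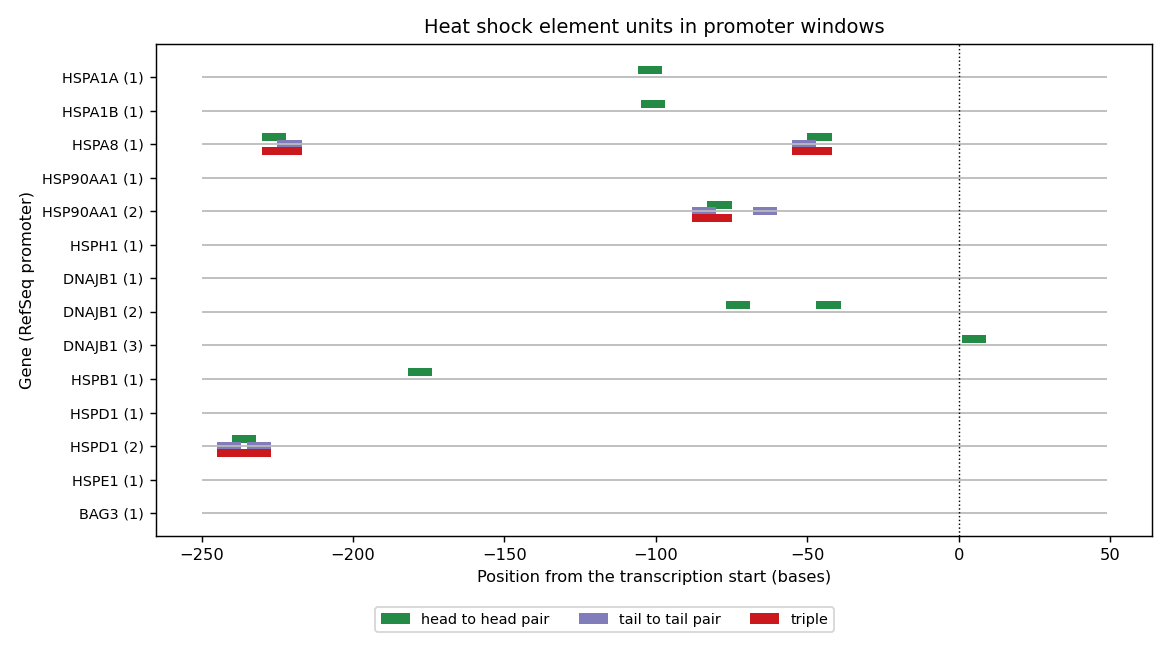
Position of heat shock element units in the 14 RefSeq promoter windows of the 10 genes; the x axis is the distance from the transcription start in bases, each grey line is a window, and colored blocks are the 3 arrangements of the unit. The triples, in red, are seen in *HSPA8*, *HSP90AA1* and *HSPD1*, and 6 windows hold no match.

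Reads counted on genes ranged from 20604377 to 37550457 per library, with a median of 29210325, and replicates had Pearson correlations of log2 CPM (counts per 1000000 reads of the library size as scaled by the authors) of 0.996 or 0.997 across genes. *MALINC1* was at 1.32 ± 0.357 CPM (mean ± SD, n = 2, as for all means given with SD) in MCF10A with pLOC-empty and at 12.6 ± 1.05 CPM with pLOC-*MALINC1*, and at 1.32 ± 0.146 and 21.9 ± 3.76 CPM in the DCIS.COM groups. All 12 breast epithelial markers examined were in the table, and their summed level differed between groups, from 8366 to 8564 CPM over the 4 DCIS.COM libraries, from 21754 to 21921 CPM in MCF10A with pLOC-empty and from 28894 to 29588 CPM in MCF10A with pLOC-*MALINC1*. Of 22 markers of leukocytes, endothelium, fibroblasts, blood and fat, 18 were not in the table, *PTPRC*, *CD3E*, *CDH5*, *LUM* and *HBB* among them, and the other 4 (*CD68*, *CD14*, *PECAM1* and *COL1A1*) summed to between 9.86 and 31.1 CPM. The signal recognition particle RNAs *RN7SL1* and *RN7SL2* took from 8.22% to 15.7% of the reads, and their share was lower with pLOC-*MALINC1* than with pLOC-empty in both lines, so that changes with a scaling that omits them are given below where they matter. Gene levels are from bulk RNA, in which fewer cells that make a transcript and less transcript per cell cannot be told apart.

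The share of all reads taken by the 10 genes together was 0.509% and 0.507% with pLOC-empty in MCF10A, and 0.649% and 0.654% with pLOC-*MALINC1*. In DCIS.COM the shares were 0.722% and 0.711% with pLOC-empty and 0.842% and 0.864% with pLOC-*MALINC1*. Both lines thus gave the 10 genes together a larger share of their reads with the lncRNA vector, and DCIS.COM a larger share than MCF10A with either vector. *HSPA8* had the largest rise in CPM in both lines, from a mean of 2171 to 3178 in MCF10A and from 3034 to 3585 in DCIS.COM. This gene made up most of the summed rise in either line. In DCIS.COM *HSP90AA1*, *HSPD1*, *HSPE1* and *HSPB1* had lower means with *MALINC1*. These shares count the *RN7SL1* and *RN7SL2* reads, whose own share was lower with pLOC-*MALINC1*, and shares without them were not computed. Per kilobase of annotated exon, *HSPA8* was the most abundant in every group, from 551 CPM per kb in MCF10A with pLOC-empty to 910 CPM per kb in DCIS.COM with pLOC-*MALINC1*. *HSPB1* stood next to it in MCF10A, at 474 and 412 CPM per kb, while in the DCIS.COM groups it was at 128 and 112 CPM per kb, where the inducible *HSPA1A* was at 122 and 177 CPM per kb. The co-chaperone genes *BAG3*, *DNAJB1* and *HSPH1* were the least abundant per length in every group, between 19.8 and 42.7 CPM per kb.

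**Figure D2:**
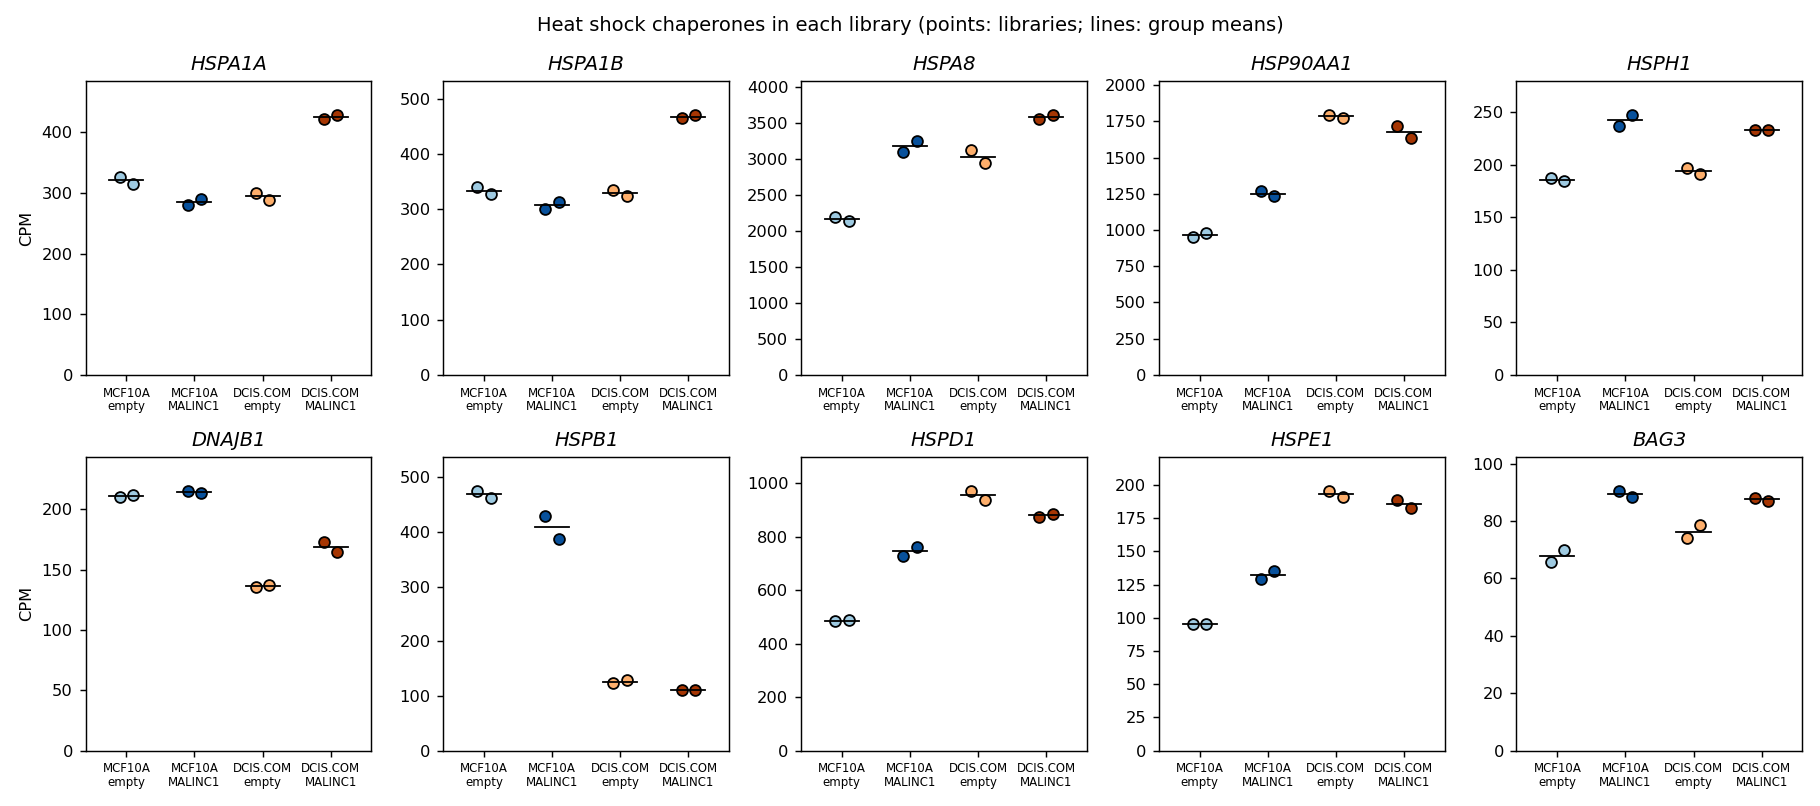
CPM of the 10 heat shock chaperones in each of the 8 libraries, one panel per gene; points are libraries, lines are the means of the 2 libraries of a group, and every y axis starts at 0. *HSPA8*, *HSPH1* and *BAG3* sit higher with pLOC-*MALINC1* in both lines, *HSPD1*, *HSPE1* and *HSP90AA1* sit higher with it in MCF10A and slightly lower in DCIS.COM, and *HSPB1* sits between 387 and 475 CPM in MCF10A and between 111 and 128 CPM in DCIS.COM.

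To examine how the chaperones responded to the lncRNA in MCF10A, pLOC-*MALINC1* was compared with pLOC-empty. *HSPA8*, *HSPH1*, *BAG3*, *HSP90AA1*, *HSPD1* and *HSPE1* were higher with *MALINC1*, by 1.30- to 1.53-fold, *HSPA1A* and *HSPB1* were lower, and *HSPA1B* and *DNAJB1* did not pass the test. A gene was called when its adjusted p from limma, with Benjamini-Hochberg adjustment over all 13842 genes, was below 0.01, and a call is counted as a DEG when the change was also over 2-fold. By this rule 6 of the 10 genes were called higher and 2 lower, where 21.5% of all genes were called higher and 18.1% lower. Among the 2387 genes at least as abundant as the least abundant of the 10, those shares were 36.6% and 22.3%. This set, called the abundant genes below, has a floor of 80.3 CPM in the mean over all libraries. It has no upper limit and was not matched to the 10 genes. None of the 10 was a DEG, against 5.5% of all genes. The median log2 fold change over the 10 genes was 0.38, and over all genes it was -5.33e-15, that is, no shift.

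Among the cytosolic HSP70 machinery, the constitutive HSP70 gene *HSPA8* (GRCh37 chr11:122928197-122933938, minus strand) is the housekeeping form that folds new proteins and uncoats clathrin vesicles. In MCF10A it was at 2201 and 2141 CPM with pLOC-empty and at 3104 and 3252 CPM with pLOC-*MALINC1*. Both *MALINC1* libraries lay above both controls, with a log2 fold change of 0.55 (SE 0.045, adjusted p = 7.81e-07), or 1.46-fold. *HSPH1* (chr13:31709110-31736525, minus strand) encodes HSP110, which exchanges the nucleotide of HSP70 and helps to dissolve aggregates. It was at 187 and 184 CPM with pLOC-empty and at 237 and 247 CPM with pLOC-*MALINC1*. The groups did not overlap, and the log2 fold change was 0.38 (SE 0.033, adjusted p = 1.47e-06). *BAG3* (chr10:121410892-121437331, plus strand), a nucleotide exchange factor that couples HSP70 clients to selective autophagy, was at 65.9 and 69.9 CPM with pLOC-empty and at 90.6 and 88.4 CPM with pLOC-*MALINC1*. It was again higher in both *MALINC1* libraries, with a log2 fold change of 0.40 (SE 0.043, adjusted p = 9.27e-06).

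The stress-inducible HSP70 genes did not follow *HSPA8* in MCF10A. *HSPA1A* (chr6:31783320-31785723, plus strand) was at 327 and 315 CPM with pLOC-empty and at 280 and 290 CPM with pLOC-*MALINC1*. It was lower in both *MALINC1* libraries and fell by 0.17 on the log2 scale (SE 0.035, adjusted p = 0.0013), or by 11.1%. The call on *HSPA1A* was lost without pLOC-empty replicate 1 (log2 fold change -0.14, adjusted p = 0.0196) and without pLOC-*MALINC1* replicate 1 (-0.14, adjusted p = 0.0168). *HSPA1B* (chr6:31795515-31798031, plus strand), which encodes almost the same protein, was at 340 and 327 CPM with pLOC-empty and at 301 and 313 CPM with pLOC-*MALINC1*. Its groups did not overlap either, but its log2 fold change of -0.12 (95% interval from -0.20 to -0.044, adjusted p = 0.0121) did not pass the test, and it passed with 6 of 20 other settings, the scaling without *RN7SL1* and *RN7SL2* among them (-0.16, adjusted p = 0.00202). Of all stretches of 76 nt, the read length, in the *HSPA1A* transcript, 73.7% also occurred in *HSPA1B*, and how reads with several matches were counted is not given in the sources used here, so that the split between these copies is uncertain. *DNAJB1* (chr19:14625581-14671203, minus strand), the HSP40 that delivers clients to HSP70 and starts its ATP cycle, was at 210 and 212 CPM with pLOC-empty and at 216 and 214 CPM with pLOC-*MALINC1*, which gives a log2 fold change of 0.025 (95% interval from -0.049 to 0.098, adjusted p = 0.562). All values of *DNAJB1* in MCF10A lay close together, and yet its groups did not overlap. A lack of overlap between groups of 2 libraries thus says little by itself, and its share over all genes was not counted. The sign of the *DNAJB1* change turned with quantile normalization (-0.0077) and without *RN7SL1* and *RN7SL2* (-0.015).

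*HSP90AA1* (chr14:102547079-102606036, minus strand) encodes the inducible cytosolic HSP90, which matures kinases and steroid receptors and holds HSF1 inactive. In MCF10A it was at 953 and 976 CPM with pLOC-empty and at 1271 and 1232 CPM with pLOC-*MALINC1*. The *MALINC1* libraries lay above the controls, with a log2 fold change of 0.38 (SE 0.038, adjusted p = 4.75e-06), or 0.23 with quantile normalization (adjusted p = 0.000581). *HSPD1* (chr2:198351308-198381461, minus strand), the HSP60 chaperonin of the mitochondrial matrix, was at 485 and 487 CPM with pLOC-empty and at 729 and 761 CPM with pLOC-*MALINC1*. This was the largest of the 10 changes in MCF10A, at a log2 fold change of 0.62 (SE 0.034, adjusted p = 2.97e-08). *HSPE1* (chr2:198364864-198368173, plus strand), the HSP10 lid of the same chaperonin, was at 95.2 and 95.1 CPM with pLOC-empty and at 129 and 135 CPM with pLOC-*MALINC1*, with a log2 fold change of 0.47 (SE 0.035, adjusted p = 3.69e-07). Of the stretches of 76 nt in the *HSPE1* transcript, 30.7% also occurred in other genes, mainly in the readthrough gene *HSPE1-MOB4*. In the GRCh37 annotation *HSPD1* and *HSPE1* overlap on opposite strands, as do *DNAJB1* with *TECR* and *HSP90AA1* with *WDR20*, and the strand setting of the counting is not given in the sources used here, so that reads from such overlaps are uncertain.

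The small heat shock protein *HSPB1* (chr7:75931990-75933612, plus strand), HSP27, forms ATP-independent oligomers that hold unfolding proteins and cap actin filaments. In MCF10A it was at 475 and 462 CPM with pLOC-empty and at 429 and 387 CPM with pLOC-*MALINC1*. Both *MALINC1* libraries were below the controls but apart from each other, and *HSPB1* fell by 0.20 on the log2 scale (SE 0.044, adjusted p = 0.00214). The call was lost without pLOC-empty replicate 1 (-0.18, adjusted p = 0.0247) and without pLOC-*MALINC1* replicate 2 (-0.13, adjusted p = 0.0265). It was also lost, with that on *HSPA1A*, when the 4 MCF10A libraries were fitted alone or without the variance trend, which left none of the 10 genes called lower, while the 6 higher calls were kept in number under every alternative run. The breast epithelial markers moved with these changes in MCF10A, where 9 of 12 were called higher and 1 lower (75% and 8.33%, against 21.5% and 18.1% of all genes), and their part in the chaperone results was not tested.

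The same comparison was made between the 4 DCIS.COM libraries. The fit pooled the spread over all 8 libraries, so that the tests in MCF10A and in DCIS.COM were not independent. *HSPA1A*, *HSPA1B*, *DNAJB1*, *HSPH1*, *HSPA8* and *BAG3* were higher with *MALINC1*, by 1.15- to 1.45-fold, and *HSPB1* was lower. *HSP90AA1*, *HSPD1* and *HSPE1* did not pass the test. Of the 10 genes, 6 were called higher and 1 lower. The shares were 16.4% and 16.7% over all genes and 28.4% and 27% over the abundant genes. None of the 10 was a DEG, against 4.53% of all genes. The median log2 fold change was 0.22 over the 10 genes and 0.0089 over all genes.

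The inducible HSP70 genes had the largest changes in DCIS.COM. *HSPA1A* was at 300 and 289 CPM with pLOC-empty and at 422 and 429 CPM with pLOC-*MALINC1*. The *MALINC1* libraries were well above both controls, with a log2 fold change of 0.53 (SE 0.035, adjusted p = 1.29e-07), or 1.45-fold. *HSPA1B* was at 335 and 323 CPM with pLOC-empty and at 464 and 470 CPM with pLOC-*MALINC1*, which gives a log2 fold change of 0.51 (SE 0.035, adjusted p = 2.22e-07). Both copies of the gene rose, as far as their shared reads allow them to be told apart. *DNAJB1* was at 135 and 138 CPM with pLOC-empty and at 173 and 165 CPM with pLOC-*MALINC1*. Its groups did not overlap, with a log2 fold change of 0.31 (SE 0.034, adjusted p = 1.26e-05).

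*HSPH1* was at 197 and 191 CPM in DCIS.COM with pLOC-empty and at 233 and 233 CPM with pLOC-*MALINC1*. The rise was larger than the spread between replicates, with a log2 fold change of 0.26 (SE 0.033, adjusted p = 4.10e-05). *HSPA8* was at 3121 and 2947 CPM with pLOC-empty and at 3556 and 3614 CPM with pLOC-*MALINC1*, which gives a log2 fold change of 0.24 (SE 0.045, adjusted p = 0.000808). The control libraries differed from each other by more than the *MALINC1* libraries did, and without pLOC-empty replicate 2 the call was lost (0.20, adjusted p = 0.0231), while with quantile normalization the value was 0.47. *BAG3* was at 74.1 and 78.6 CPM with pLOC-empty and at 88.0 and 87.0 CPM with pLOC-*MALINC1*, which gives a log2 fold change of 0.20 (SE 0.043, adjusted p = 0.00258). Both *MALINC1* libraries were higher, but the call was lost without pLOC-empty replicate 1 (0.16, adjusted p = 0.0318), without pLOC-*MALINC1* replicate 1 (0.19, adjusted p = 0.0227) and without pLOC-*MALINC1* replicate 2 (0.21, adjusted p = 0.0151). Without the variance trend, the adjusted p was 0.0126 for *HSPA8* and 0.0284 for *BAG3*, and with the DCIS.COM libraries fitted alone it was 0.0303 and 0.0180.

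*HSPB1* was at 124 and 128 CPM in DCIS.COM with pLOC-empty and at 111 and 111 CPM with pLOC-*MALINC1*. Both *MALINC1* libraries were lower, and *HSPB1* fell by 0.19 on the log2 scale (SE 0.044, adjusted p = 0.00419). This call was lost without any one of the 4 DCIS.COM libraries, with log2 fold changes from -0.21 to -0.16 and adjusted p of 0.0148 without pLOC-empty replicate 1, 0.0493 without pLOC-empty replicate 2, 0.0251 without pLOC-*MALINC1* replicate 1 and 0.0284 without pLOC-*MALINC1* replicate 2. With the scaling that omits *RN7SL1* and *RN7SL2* it was lost as well (-0.15, adjusted p = 0.0121).

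The HSP90 and mitochondrial genes did not pass the test in DCIS.COM. *HSP90AA1* was at 1795 and 1773 CPM with pLOC-empty and at 1716 and 1631 CPM with pLOC-*MALINC1*, which gives a log2 fold change of -0.092 (95% interval from -0.17 to -0.010, adjusted p = 0.0631). *HSPD1* was at 972 and 938 CPM with pLOC-empty and at 874 and 885 CPM with pLOC-*MALINC1*, which gives a log2 fold change of -0.12 (95% interval from -0.19 to -0.044, adjusted p = 0.0134). Both genes had lower values in the 2 *MALINC1* libraries than in either control. *HSPD1* passed with limma-voom on the recovered reads (adjusted p = 0.00256), while its sign turned with quantile normalization (0.0047). *HSPE1* was at 196 and 191 CPM with pLOC-empty and at 189 and 183 CPM with pLOC-*MALINC1*, which gives a log2 fold change of -0.058 (95% interval from -0.13 to 0.019, adjusted p = 0.204). Of the breast epithelial markers in DCIS.COM, 3 of 12 were called higher and 3 lower (25% each, against 16.4% and 16.7% of all genes).

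**Figure D3:**
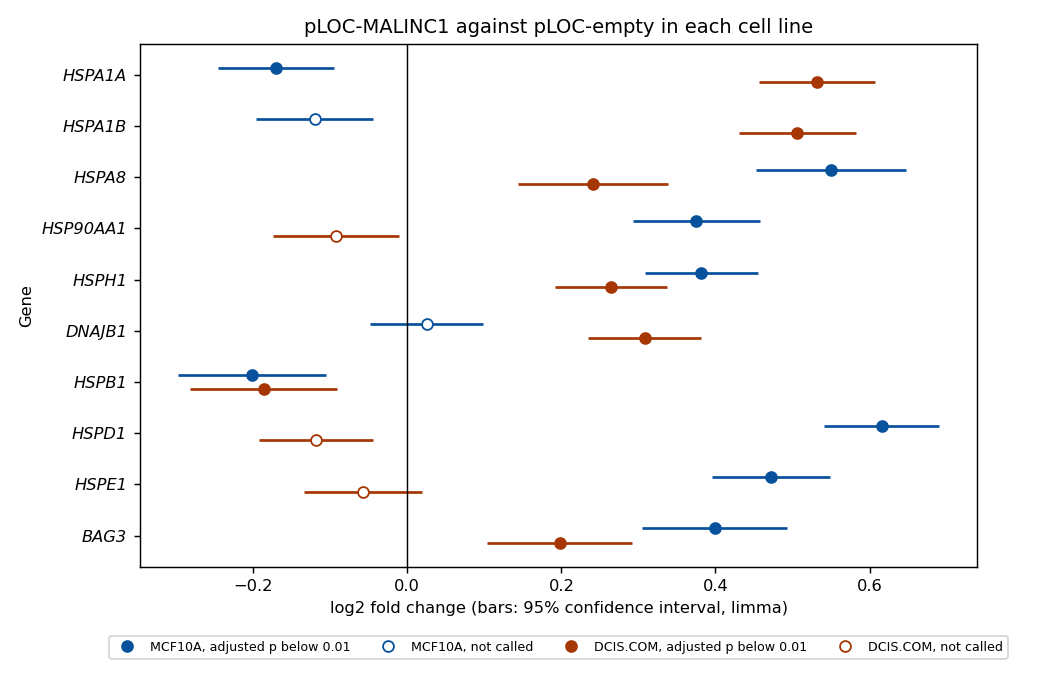
Log2 fold change of pLOC-*MALINC1* against pLOC-empty for the 10 genes in MCF10A (blue) and DCIS.COM (orange); bars are 95% confidence intervals from limma, and filled points have an adjusted p below 0.01. *HSPA1A* and *HSPA1B* lie below 0 in MCF10A and near 0.5 in DCIS.COM, *HSPD1*, *HSPE1* and *HSP90AA1* lie between 0.38 and 0.62 in MCF10A and below 0 in DCIS.COM (0.0047 for *HSPD1* with quantile normalization), and *HSPB1* lies near -0.2 in both.

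Whether the response differed between the lines was tested directly, as the effect in DCIS.COM minus that in MCF10A, a contrast that uses the same 8 libraries as both effects. The inducible HSP70 genes and their HSP40 partner had the higher response in DCIS.COM. The difference was 0.70 for *HSPA1A* (SE 0.049, adjusted p = 2.16e-07), 0.63 for *HSPA1B* (SE 0.049, adjusted p = 6.72e-07) and 0.28 for *DNAJB1* (SE 0.048, adjusted p = 0.000381) on the log2 scale. The mitochondrial chaperonin, HSP90 and constitutive HSP70 had the lower response in DCIS.COM, except that the sign for *HSPA8* turned with quantile normalization. The difference was -0.73 for *HSPD1* (SE 0.048, adjusted p = 1.33e-07), -0.53 for *HSPE1* (SE 0.050, adjusted p = 3.09e-06), -0.47 for *HSP90AA1* (SE 0.053, adjusted p = 1.59e-05) and -0.31 for *HSPA8* (SE 0.063, adjusted p = 0.00154). In this contrast 3 of the 10 genes were called higher and 4 lower. The shares were 15.6% and 20.3% over all genes and 21.8% and 37.2% over the abundant genes. None of the 10 was over 2-fold, against 9.2% of all genes. The median over the 10 genes was -0.16, and over all genes it was -0.0071. With quantile normalization the median over the 10 genes was -0.032, and without *RN7SL1* and *RN7SL2* it was -0.085. Of all calls in this contrast 43.5% were in the higher direction, and without *RN7SL1* and *RN7SL2* 55.4% were.

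The remaining 3 genes moved the same way in both lines, and their differences did not pass the test. For *BAG3* the difference was -0.20 (95% interval from -0.33 to -0.068, adjusted p = 0.0164), for *HSPH1* it was -0.12 (95% interval from -0.22 to -0.014, adjusted p = 0.0571), and for *HSPB1* it was 0.015 (95% interval from -0.12 to 0.15, adjusted p = 0.856). The interval of *HSPB1* spans 0, and its sign turned when some single libraries were left out, with a range from -0.059 to 0.089. For *HSPA8* the call was lost without DCIS.COM pLOC-empty replicate 1 (-0.27, adjusted p = 0.0162), and with quantile normalization the difference was 0.049 (adjusted p = 0.616), and that of *HSP90AA1* was -0.24 (adjusted p = 0.00378). Without the variance trend the calls on *HSPA8* (adjusted p = 0.0163) and *DNAJB1* (adjusted p = 0.0131) were lost.

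The level of each chaperone was then compared between the lines with each vector, which shares its libraries with the comparisons above. With pLOC-empty, DCIS.COM had more *HSPE1*, *HSPD1*, *HSP90AA1*, *HSPA8* and *BAG3* and less *HSPB1*, *DNAJB1* and *HSPA1A* than MCF10A. Of the 10 genes, 5 were called higher and 3 lower, where 37.9% of all genes were called higher and 36% lower, so that most genes of the table differed between the lines. *HSPB1* and *HSPE1* were over 2-fold, 2 of 10 against 28.6% of all genes. Among the abundant genes 40.1% were called higher and 44% lower. The median was 0.12 over the 10 genes and 0.031 over all genes, and over the 10 genes it was 0.21 with quantile normalization and 0.22 without *RN7SL1* and *RN7SL2*.

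*HSPB1* had the largest difference between the lines. Its 2 DCIS.COM libraries, near 126 CPM, were far below the 2 MCF10A libraries, near 469 CPM, and it fell by 1.89 on the log2 scale (SE 0.044, adjusted p = 7.88e-13), to 0.269 of the MCF10A level. *HSPE1* and *HSPD1*, the paired chaperonin genes, were 2.03- and 1.96-fold higher in DCIS.COM, with log2 differences of 1.02 (SE 0.035, adjusted p = 2.88e-11) and 0.97 (SE 0.034, adjusted p = 3.43e-11). *HSP90AA1* was 1.85-fold higher (log2 difference 0.89, SE 0.038, adjusted p = 2.08e-10) and *HSPA8* 1.40-fold higher (0.48, SE 0.045, adjusted p = 4.67e-07). *DNAJB1* fell by 0.63 (SE 0.034, adjusted p = 2.07e-09), to 0.647 of its MCF10A level.

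For the inducible HSP70 genes the lines were close with pLOC-empty. *HSPA1A* had a log2 difference of -0.12 (SE 0.035, adjusted p = 0.0054), whose call was lost without MCF10A pLOC-empty replicate 1 (-0.096, adjusted p = 0.0600) or DCIS.COM pLOC-empty replicate 2 (-0.097, adjusted p = 0.0586) and without *RN7SL1* and *RN7SL2* (-0.018, adjusted p = 0.644), and whose sign turned with quantile normalization (0.050). The groups of *HSPA1B* overlapped, and its log2 difference was -0.019 (95% interval from -0.095 to 0.057, adjusted p = 0.616), with a sign that depended on the scaling. The difference of *BAG3* was 0.17 (SE 0.043, adjusted p = 0.00302), a call lost without MCF10A pLOC-empty replicate 1 (0.13, adjusted p = 0.0427) or DCIS.COM pLOC-empty replicate 2 (0.13, adjusted p = 0.0386), and a value of 0.27 without *RN7SL1* and *RN7SL2*. Without the variance trend the adjusted p was 0.0241 for *BAG3* and 0.0448 for *HSPA1A*. *HSPH1* did not pass (0.063, 95% interval from -0.0098 to 0.14, adjusted p = 0.0993), although it did without *RN7SL1* and *RN7SL2* (0.17, adjusted p = 0.000468), a scaling that moved the median of all genes to 0.14.

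With pLOC-*MALINC1* in both lines, the inducible HSP70 genes were higher in DCIS.COM. *HSPA1A* was 1.49-fold higher (log2 difference 0.58, SE 0.035, adjusted p = 6.82e-09) and *HSPA1B* 1.52-fold higher (0.61, SE 0.035, adjusted p = 4.74e-09). *HSPE1* (0.49), *HSP90AA1* (0.42), *HSPD1* (0.24) and *HSPA8* (0.17) were again higher in DCIS.COM, each by less than with pLOC-empty in the values as deposited, which is the tested difference of effects seen from the other side. With quantile normalization *HSPA8* was at 0.75 with pLOC-*MALINC1* and 0.70 with pLOC-empty, so that its order turned. That scaling also raised *HSP90AA1* to 0.71 and *HSPD1* to 0.43, and the scaling without *RN7SL1* and *RN7SL2* gave 0.35 for *HSPA8* and 0.42 for *HSPD1*. The call on *HSPA8* (adjusted p = 0.00309) was lost without MCF10A pLOC-*MALINC1* replicate 1 (0.14, adjusted p = 0.0322) or DCIS.COM pLOC-*MALINC1* replicate 2 (0.16, adjusted p = 0.0162), and with other models (adjusted p = 0.0141 with these groups fitted alone and 0.0180 without the variance trend). *HSPB1* fell by 1.88 (SE 0.044, adjusted p = 9.99e-13) and *DNAJB1* fell by 0.35 (SE 0.034, adjusted p = 8.42e-07) in DCIS.COM relative to MCF10A. For *DNAJB1* the value was -0.22 with quantile normalization and -0.17 without *RN7SL1* and *RN7SL2*. In all, 6 of the 10 genes were called higher and 2 lower, against 35.7% and 37.2% of all genes, and *HSPB1* alone was over 2-fold, against 26.6% of all genes. Of all calls 49% were higher in DCIS.COM, and without *RN7SL1* and *RN7SL2* 61.8% were. Among the abundant genes 33.2% were called higher and 48.7% lower. The median was 0.21 over the 10 genes and 0.0055 over all genes, and over the 10 genes it was 0.52 with quantile normalization and 0.39 without *RN7SL1* and *RN7SL2*. *HSPH1* (-0.054, 95% interval from -0.13 to 0.019) and *BAG3* (-0.032, 95% interval from -0.13 to 0.062) did not pass, and both turned to a positive call without *RN7SL1* and *RN7SL2* (0.13 and 0.15), where the median of all genes was 0.18.

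**Figure D4:**
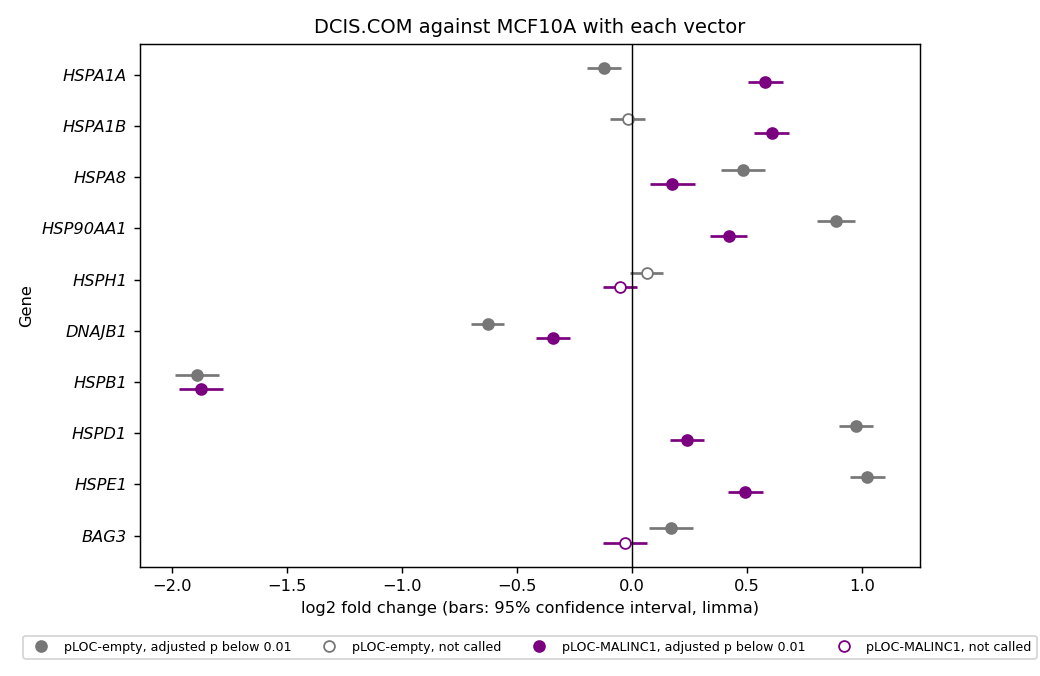
Log2 difference of DCIS.COM against MCF10A for the 10 genes with pLOC-empty (grey) and with pLOC-*MALINC1* (purple); bars are 95% confidence intervals from limma, and filled points have an adjusted p below 0.01. *HSPB1* lies near -1.9 with either vector, *HSPE1* and *HSPD1* lie near 1 with pLOC-empty and at 0.49 and 0.24 with pLOC-*MALINC1*, and *HSPA1A* and *HSPA1B* move from -0.12 and -0.019 to 0.58 and 0.61.

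The wider chaperone system was examined with lists that together hold 147 genes, of which 134 were in the table. *HSF1*, the regulator of the response, was at 66.3 ± 1.45 CPM in MCF10A with pLOC-empty and at 71.0 ± 0.752 CPM with pLOC-*MALINC1*, and at 44.7 ± 3.54 and 47.2 ± 0.237 CPM in the DCIS.COM groups. It passed no test of the vector (0.10, adjusted p = 0.127 in MCF10A, and 0.081, adjusted p = 0.223 in DCIS.COM on the log2 scale), and was lower in DCIS.COM than in MCF10A with either vector (-0.57, adjusted p = 3.59e-07, and -0.59, adjusted p = 2.89e-07). *HSF2*, the developmental family member, was at -0.014 (adjusted p = 0.909) in MCF10A and 0.052 (adjusted p = 0.652) in DCIS.COM for *MALINC1* and was higher in DCIS.COM with either vector (0.57, adjusted p = 4.95e-05, and 0.63, adjusted p = 1.90e-05). Of the 6 measured genes of the HSF family and its regulators, none was called with *MALINC1* in MCF10A, and *HSBP1*, which encodes a binding partner of HSF1, was called lower in DCIS.COM.

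In MCF10A, 57 of the 134 listed genes were called higher with *MALINC1* and 20 lower (42.5% and 14.9%), with 0.13 as the median on the log2 scale. The shares were 21.5% and 18.1% over all genes and 36.6% and 22.3% over the genes at least as abundant as the least abundant of the 10. In DCIS.COM 29 were called higher and 22 lower (21.6% and 16.4%), with a median of 0.028, against 16.4% and 16.7% of all genes and 28.4% and 27% of the abundant ones, and the counts of single lists below are to be read against the same shares. These counts include the 10 genes described above. The cytosolic chaperonin TRiC, which folds actin and tubulin, had 8 of 9 subunit genes called higher in MCF10A (median 0.38), with *CCT3* at 0.47 (adjusted p = 1.67e-07) and *CCT8* at 0.46 (adjusted p = 2.83e-07). In DCIS.COM none of the 9 was called higher and 2 were called lower, *CCT6A* (-0.14, adjusted p = 0.00201) and *CCT4* (-0.14, adjusted p = 0.00871), and the difference between the lines was called lower for 8 of 9. The mitochondrial list, which holds *HSPD1* and *HSPE1*, had 8 of 12 genes called higher in MCF10A (median 0.42). Its largest rise was *GRPEL1*, the exchange factor of mitochondrial HSP70, at 0.80 (SE 0.045, adjusted p = 3.32e-08), and *TRAP1*, the mitochondrial HSP90, was at 0.58 (adjusted p = 9.09e-08). In DCIS.COM 1 of the 12 was called higher, *DNAJA3*, and 2 lower, *LONP1* and *HSCB* (median -0.048), and the difference between the lines was called lower for 8 of 12.

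Of the HSP90 genes, *HSP90AB1*, the constitutive cytosolic form, was higher in MCF10A (0.51, adjusted p = 9.91e-08) and lower in DCIS.COM (-0.22, adjusted p = 0.000180), and the difference was -0.73 (adjusted p = 9.46e-08). Its inducible counterpart *HSP90AA1* was higher in MCF10A, as described above. HSP90 co-chaperones were called higher for 9 of 15 genes and lower for 3 in MCF10A, and for 8 and 3 of 15 in DCIS.COM (medians 0.24 and 0.17). *CHORDC1*, an HSP90 partner that is itself induced by heat, was among those higher in both (0.49, adjusted p = 2.60e-06, and 0.48, adjusted p = 3.95e-06), and its difference between the lines was -0.011 (adjusted p = 0.906). Of the HSP70 and HSP110 proteins, 8 of 15 were called higher and 2 lower in MCF10A, and 5 higher and 1 lower in DCIS.COM (medians 0.33 and 0.16). *HSPA4L*, an HSP110 relative, had the largest rise among the listed genes of MCF10A at 5 CPM or more (0.91, SE 0.042, adjusted p = 5.57e-09) and was lower in DCIS.COM (-0.27, adjusted p = 0.000183). *HSPA5*, the HSP70 of the endoplasmic reticulum, was higher in MCF10A (0.69, adjusted p = 6.66e-09) and did not pass in DCIS.COM (-0.074, adjusted p = 0.0788). Of 15 ER chaperone genes, 8 were called higher and 2 lower in MCF10A, and 2 higher and 1 lower in DCIS.COM (medians 0.21 and 0.023).

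Changes over 2-fold with *MALINC1* were found in 2 of the 134 listed genes in MCF10A and in 5 in DCIS.COM. The shares over all genes were larger, at 5.5% and 4.53%. None of these changes fell on the 10 genes. In MCF10A these were *HMOX1*, the stress-inducible heme oxygenase, which fell by 1.26 on the log2 scale (adjusted p = 9.21e-06), and *DNAJC28*, which was under 1 CPM in both groups. In DCIS.COM *CRYAB*, the small heat shock protein alpha B-crystallin, was at 0.991 ± 0.0849 CPM with pLOC-empty and at 3.92 ± 0.206 CPM with pLOC-*MALINC1*, which gives a log2 fold change of 1.98 (SE 0.15, adjusted p = 5.31e-07). *CLU*, the secreted chaperone clusterin, was at 7.50 ± 0.445 CPM with pLOC-empty and 20.8 ± 1.83 CPM (log2 fold change 1.47, SE 0.11, adjusted p = 6.78e-07). *CRYAB* and *HSPB1* belong to one protein family and moved in opposite directions in DCIS.COM. The fall of *HSPB1* was small (-0.19), and its call was lost without the variance trend and with the scaling that omits *RN7SL1* and *RN7SL2*. *DNAJB12* (-1.13, adjusted p = 9.62e-11), which works with HSP70 at the ER membrane, and *DNAJC18* (-1.07, adjusted p = 0.000279) and *RGS2* (-1.06, adjusted p = 3.04e-05) were the falls over 2-fold. *SERPINH1*, the heat-inducible collagen chaperone HSP47, fell by 0.94 in DCIS.COM (adjusted p = 3.38e-09) and was higher in MCF10A (0.21, adjusted p = 0.000831). Of the 23 other heat shock responsive genes in the table, 15 were called higher and 2 lower in MCF10A, and 7 higher and 6 lower in DCIS.COM (medians 0.29 and 0.080).

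The J-domain co-chaperones were the largest list, and with *MALINC1* 12 of 38 were called higher and 8 lower in MCF10A (31.6% and 21.1%, median 0.027), and 10 higher and 4 lower in DCIS.COM (26.3% and 10.5%, median 0.049). The list thus had more higher calls than the table as a whole, where 21.5% (MCF10A) or 16.4% (DCIS.COM) of genes were called higher. Its lower calls were above the 18.1% of all genes for MCF10A but below the 16.7% for DCIS.COM. No share of the list exceeded that of the abundant genes. That set is no close match, as the list also holds genes far under its floor, such as *DNAJC28* at a mean of 0.718 CPM. *DNAJB4* fell by 0.995 on the log2 scale in MCF10A (adjusted p = 9.79e-06), and *DNAJC6*, which recruits *HSPA8* protein to clathrin coats, was higher in DCIS.COM (0.65, adjusted p = 0.000328). Of the HSP70 exchange factors and partners, 2 of 11 were called higher and 2 lower in MCF10A (18.2% each, median 0.025), near the shares of all genes, and 3 higher and 2 lower in DCIS.COM (27.3% and 18.2%, median 0.13). *BAG3* was called higher in both lines and *BAG1*, a family member, lower in both (-0.29, adjusted p = 7.46e-05, and -0.19, adjusted p = 0.00235). Of the 6 prefoldin genes, which feed TRiC, 2 were called higher and 1 lower in MCF10A, with *PFDN2* at 0.74 (adjusted p = 1.45e-07), and in DCIS.COM none was called higher and 1 lower (medians 0.053 and -0.099). Of 10 small heat shock protein genes, 3 were in the table.

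**Figure D5:**
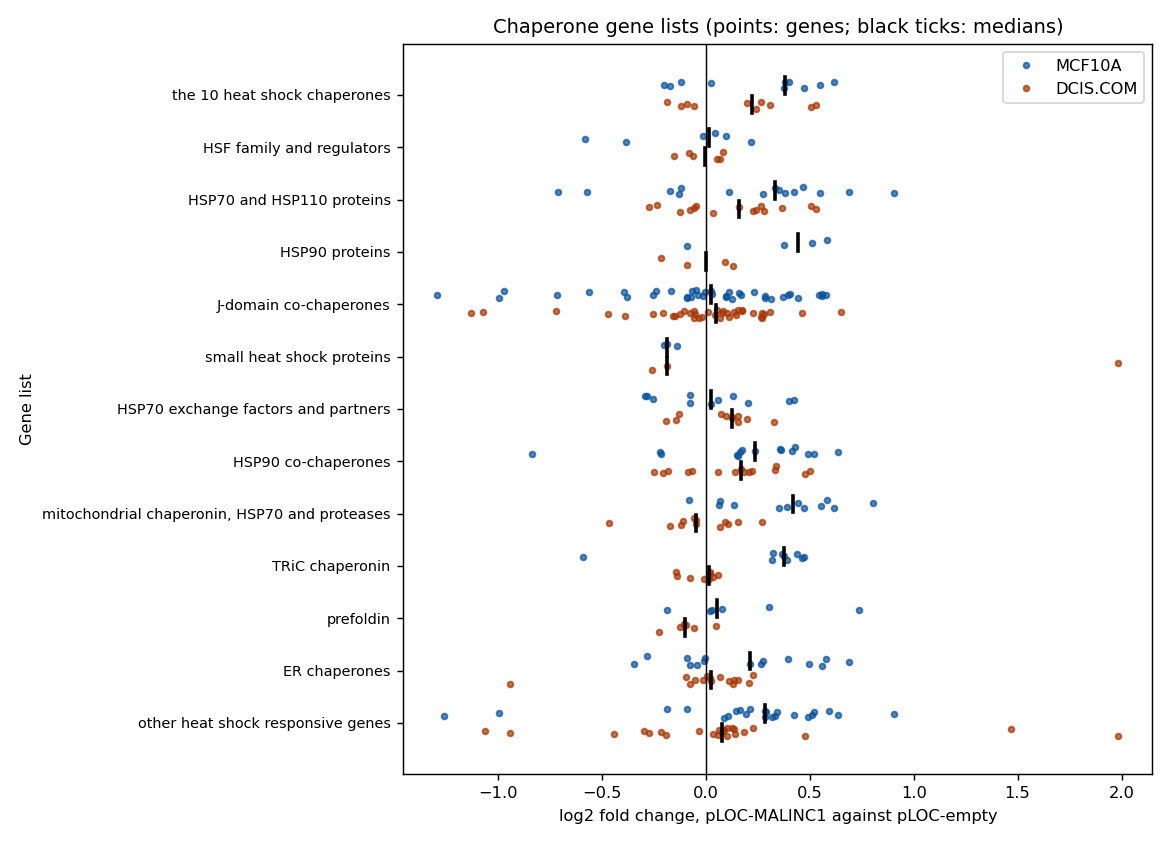
Log2 fold change of pLOC-*MALINC1* against pLOC-empty for each measured gene of the 10 heat shock chaperones and of 12 further lists, in MCF10A (blue) and DCIS.COM (orange); points are genes, black ticks are list medians, and a gene can belong to several lists. The TRiC and mitochondrial medians lie at 0.38 and 0.42 in MCF10A and at 0.014 and -0.048 in DCIS.COM.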

How the data were processed

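The authors prepared libraries with the ScriptSeq v2 kit, sequenced them as paired-end reads of 76 nt, mapped them with Rsubread to hg19, used featureCounts on the UCSC gene set and normalized with edgeR. Tool versions, the strand setting and the handling of reads with several matches are not given in the sources used here. The authors deposited log2 CPM, whose prior count is 2. Whole reads were recovered from the deposited log2 CPM within a tolerance of 0.05 for 100% of values, and CPM are the deposited values taken off the log scale, prior included, so that 0 reads stand at 0.0713 CPM. Replicates differed by more than sampling noise, with a chi-square per degree of freedom from 3.27 to 20.4.

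The test was limma (3.58.1, R 4.3.3) on these log2 values (lmFit, eBayes with a trend, two-sided, Benjamini-Hochberg over all genes tested), fitted as 4 group means over all 8 libraries. The filter asked for 0.5 CPM in 2 libraries, and all 13842 genes met it. The 10 genes, the gene lists, the markers and the tests were chosen with earlier results of these data known. The text names all 10 genes, *HSF1*, *HSF2*, listed genes over 2-fold with *MALINC1*, and the 3 largest called rises and falls among listed genes that reach 5 CPM in one group. *CCT3*, *CCT4*, *CCT6A*, *CCT8*, *TRAP1*, *DNAJA3*, *LONP1*, *HSCB*, *HSP90AB1*, *CHORDC1*, *HSPA5*, *BAG1* and *HSBP1* were added as examples after their values were seen. Gene coordinates are those of GENCODE on GRCh37, and promoter windows and their coordinates are those of RefSeq on GRCh38.p14. Other pseudocounts, filters, scalings, models and thresholds were tried, and single libraries were left out one after another. The steps were tested on simulated data. Scripts used Python 3.11.15, numpy 2.4.6, pandas 2.3.3, scipy 1.17.1 and matplotlib 3.10.9.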

Additional observations from a re-analysis of the deposited data

Results flagged for a closer look

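For 7 of the 10 genes the effect of *MALINC1* differed between the lines by the test of the difference itself (limma, effect in DCIS.COM minus that in MCF10A, log2). By the same test 35.9% of all genes were called. Of the abundant genes, 21.8% were called higher and 37.2% lower. The 10 genes, with 30% called higher and 40% lower, were near those shares, so that the count is no trait of the 10 genes. *HSPA1A* differed by 0.70, *HSPA1B* by 0.63 and *DNAJB1* by 0.28, with the higher effect in DCIS.COM. *HSPD1* differed by -0.73, *HSPE1* by -0.53, *HSP90AA1* by -0.47 and *HSPA8* by -0.31, with the higher effect in MCF10A, although with quantile normalization the difference of *HSPA8* was 0.049. *HSPA1A* was called in opposite directions in the lines.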

How the results depend on the processing

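For MCF10A, the number of the 10 genes called lower was 0 when its groups were fitted alone and 0 without the variance trend, and ranged from 0 to 2 when single libraries were left out. All genes called numbered 3101 when the groups were fitted alone, and DEGs numbered 497 and 404 with pseudocounts of 0.5 and 1 CPM and 487 with a filter of 5 CPM. For DCIS.COM, the number of the 10 called lower was 0 without *RN7SL1* and *RN7SL2*, 0 without the trend, 2 with limma-voom, 2 at an adjusted p below 0.05, and 0 to 1 with single libraries left out, and the number called higher ranged from 4 to 6 over the alternatives. All genes called numbered 2559 when fitted alone and 2915 without the trend, and DEGs numbered 354 with a pseudocount of 1 CPM. Signs turned with quantile normalization for *DNAJB1* in MCF10A (-0.0077), *HSPD1* in DCIS.COM (0.0047), the difference of *HSPA8* (0.049) and, between lines, *HSPA1A* (0.050) and *HSPA1B* (0.17) with pLOC-empty and *HSPH1* (0.042) and *BAG3* (0.10) with pLOC-*MALINC1*. Without *RN7SL1* and *RN7SL2* they turned for *DNAJB1* in MCF10A (-0.015) and, between lines, for *HSPA1B* with pLOC-empty (0.087) and *HSPH1* (0.13) and *BAG3* (0.15) with pLOC-*MALINC1*. With single libraries left out, the difference of *HSPB1* ranged from -0.059 to 0.089, with -0.0057 without MCF10A pLOC-empty replicate 1 and -0.0098 without DCIS.COM pLOC-empty replicate 1, and *HSPA1B* between lines with pLOC-empty ranged from -0.049 to 0.010. The causes were not tested. With a replicate block, all genes called numbered 5327 in MCF10A, 4429 in DCIS.COM, 4839 for the difference, and 10168 and 10028 between lines, and none of the counts of the 10 genes changed. Same-numbered libraries deviated with correlations from -0.067 to 0.038, so that no shared deviation was seen. This cannot exclude that same-numbered libraries were prepared together, which the labels do not say. Shared sequence of *HSPA1A* with *HSPA1B* and of *HSPE1* with *HSPE1-MOB4* limits those values at any depth, and 2 libraries a group limit all of them.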

Other observations

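With pLOC-empty, 30 of the 124 measured chaperone genes outside the 10 were called over 2-fold between the lines, where 28.6% of all genes were. For the vector the counts were 2 (MCF10A) and 5 (DCIS.COM), where the shares of all genes were 5.5% (MCF10A) and 4.53% (DCIS.COM). Larger differences between lines than between vectors were thus a trait of the whole table. The genes named next were picked from the extremes of the lists. *BAG2*, which inhibits the ubiquitin ligase that works with HSP70, was at 0.581 ± 0.157 CPM (mean ± SD, n = 2) in MCF10A with pLOC-empty and at 17.3 ± 1.12 CPM in DCIS.COM, a log2 difference of 4.92 (SE 0.21, limma adjusted p = 1.94e-10), and with pLOC-*MALINC1* the difference was 5.34. *DNAJA4*, a type I HSP40, was at 10.2 ± 1.29 and 0.376 ± 0.229 CPM (-4.90, adjusted p = 1.52e-08), and *HSF2BP*, an HSF2 binding protein, at 10.0 ± 0.966 and 0.710 ± 0.177 CPM (-3.84, adjusted p = 1.67e-09). *FKBP5*, an HSP90 co-chaperone and a classic glucocorticoid target, was at 516 ± 4.48 CPM in MCF10A with pLOC-empty, at 289 ± 0.370 CPM with pLOC-*MALINC1*, and at 18.1 ± 0.730 and 25.6 ± 0.742 CPM in the DCIS.COM groups. Hydrocortisone, a glucocorticoid, was in the MCF10A medium alone, and its part in the *FKBP5* difference cannot be told apart from that of the cell line.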
